A study of Pimephales promelas with 15 samples.

Results

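In 2 of the 15 fathead minnow livers of this series, a set of transcripts that was bright in nearly all other livers was almost lost. The 200 probes described here are those for which the loss was largest on both arrays. They were taken from 11640 probes tested, of the 15208 non-control probes on the array. The members were chosen by their measured signals in those 2 livers, which were stormwater replicate 2 and streamwater replicate 4, from fish in different waters whose arrays lay on different slides. Each value is the log2 signal of a probe minus the 75th percentile of its array, and a deviation is that value minus the probe's median over all 15 arrays. The 200 probes of highest mean level in the 3 controls were left out, and the others were ranked by the higher of their deviations on the 2 arrays. The 200 lowest are called members below. Because those 2 arrays chose the members, their values there are a description and carry no test.

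The fathead minnow (Pimephales promelas) is a freshwater fish of toxicity testing. The main cells of its liver, the hepatocytes, make most plasma proteins, among them apolipoproteins, transferrin and clotting factors, and transcripts of such secreted proteins are among the most abundant in the organ. The liver also makes bile acids and breaks down foreign compounds. In RNA from whole tissue, fewer cells of a type and less RNA per cell cannot be told apart.

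The study asked how urban waters change liver gene expression in male fish kept for 48 h in 1 of 4 waters. Stormwater (4 livers) was lake water. Streamwater (4 livers) was drawn from a stream below a wastewater treatment plant. Wastewater (4 livers) was treated effluent that is used for irrigation. Control water (3 livers) was dechlorinated tap water that had passed carbon. Fish of all groups were mature males from 1 tank, were unfed, and each array held liver RNA of 1 fish. Each water had 4 aquaria of 4 fish, but no label says which aquarium an arrayed fish came from, so that p-values measure the spread between single fish, some of which may have shared an aquarium.

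No gene names come with the probes. Names of the probes' sequences matched 0 of 64593 genes of the RefSeq table for this species, so that members are given by probe identifier, no member could be assigned a function, and the labelled tissue could not be checked against liver markers. The brightness of a probe also depends on the probe itself, and levels are therefore compared between livers and not between probes. Precision is limited by the number of arrays. On the 2 arrays that chose the members, 77.1% (stormwater replicate 2) and 64.5% (streamwater replicate 4) of all non-control probes were well above background, against 58.5% to 75.2% on the other 13. The 75th percentile of the signal was 3981 and 2158 intensity units on those 2 arrays, against 1393 to 2697 on the others, and no member was saturated on any array.

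The members had a median level of -3.39 in stormwater replicate 2 and -4.15 in streamwater replicate 4. In the other stormwater livers their median was 2.62, 2.76 and 3.14, in the other streamwater livers 2.99, 2.35 and 3.51, in wastewater livers 2.99, 2.47, 3.20 and 3.46, and in controls 2.82, 2.08 and 3.21. The medians of the 2 livers lay far below all 13 others, which spanned less than 2 log2 units. On the array of stormwater replicate 2 the members' deviations ran from -9.09 to -4.47 with a median of -6.30. On that of streamwater replicate 4 they ran from -10.31 to -4.46 with a median of -6.53.

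**Figure D1:**
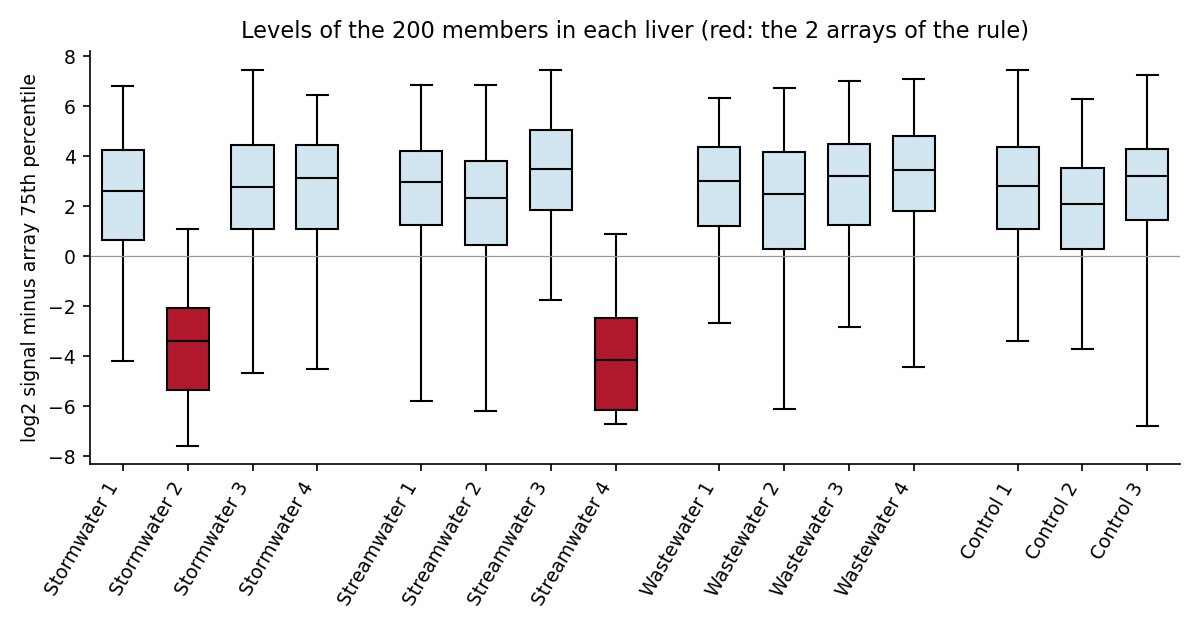
Level of the 200 members in each of the 15 livers, as log2 signal minus the array's 75th percentile. Boxes run from the lower to the upper quartile with a line at the median, and whiskers reach the lowest and highest member. The 2 red boxes, stormwater replicate 2 (median -3.39) and streamwater replicate 4 (median -4.15), lie below the other 13, whose medians run from 2.08 to 3.51.

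Part of the members could no longer be measured on these arrays. In stormwater replicate 2, 137 of 200 were well above background, and in streamwater replicate 4, 99 were, against 198 to 200 on each of the other 13 arrays. All 99 seen in streamwater replicate 4 were also seen in stormwater replicate 2, another 38 were seen in stormwater replicate 2 alone, and 63 were seen in neither. A member that was not well above background has only an upper limit, taken as the higher of its own signal and the lowest signal of any probe well above background on that array. With such members at that limit, the median member stood at least 66.9-fold (stormwater replicate 2) and at least 61.2-fold (streamwater replicate 4) below its own median over the 15 livers.

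For the members that could be measured, the loss was similar in size in both livers. The choice required a large loss in both, which favours such a similarity, so that these values only describe the members. Members well above background stood a median of 74.3-fold below their own median in stormwater replicate 2 (137 members) and of 78.0-fold below it in streamwater replicate 4 (99 members). Among the 99 measured in both, 78 differed by less than 1 log2 unit between them. The level in stormwater replicate 2 was the higher in 75 of these 99, with a median difference of 0.50 (stormwater replicate 2 minus streamwater replicate 4). Across these 99 members, the deviations in the 2 livers correlated at r = 0.801, where the shared median in both deviations raises r, and the levels at r = 0.831. These are correlations across probes of 2 arrays, given without a value for all probes, and probes are not independent replicates.

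**Figure D2:**
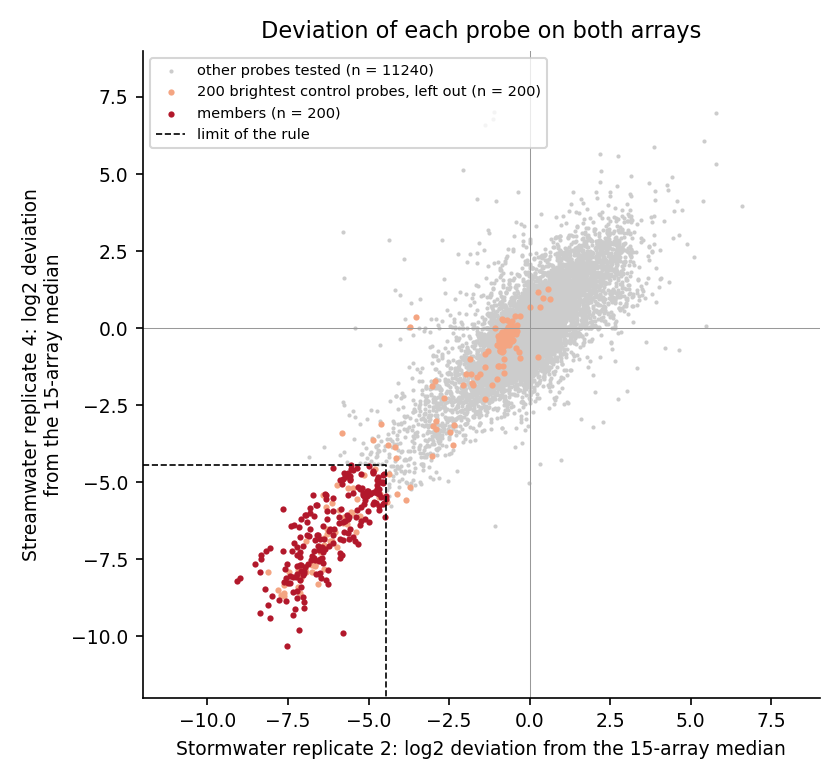
Deviation of every probe tested from its median over 15 arrays, in log2 units, in stormwater replicate 2 (horizontal axis) and in streamwater replicate 4 (vertical axis). Red points are the 200 members, orange points the 200 brightest control probes that the rule left out, grey points the other 11240 probes, and dashed lines mark the limit of the rule. The members fill the lower left corner, together with 51 of the orange points.

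The members are the lower end of a wider loss. Of all probes tested, 304 (2.61%) lay over 4 log2 units, or 16-fold, below their median in both livers. All 200 members and 61 of the 200 brightest control probes were among them. Over 6 log2 units below were 134 probes, of which 101 were members and 33 were among the brightest. Had the brightest not been left out, 51 of them would have been taken. The members made up 0.118% of the summed signal of all non-control probes in stormwater replicate 2 and 0.0844% in streamwater replicate 4. This share was 3.95% to 7.41% in the other 13 livers. The 200 brightest control probes held 31.5% and 37.7% of the same sum in stormwater replicate 2 and streamwater replicate 4, against 50.2% to 56.6% in the others.

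The gap to the other livers was wide for most members. In both livers, 197 of 200 members lay below all 13 other arrays, as did 12.6% of all probes tested, a share given as background to a count that the choice of members largely fixes. The distance from the higher of the 2 livers to the lowest of the other 13 had a median of 4.32 log2 units, was over 2 units for 188 members and over 4 units for 112. The largest such gap was 7.85.

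The member that ranked first was UF_Ppr_AF_114145. It was at -5.50 in stormwater replicate 2 and at -6.38 in streamwater replicate 4, not well above background in either. Its levels were 2.61, 3.61 and 3.56 in the other stormwater livers, 2.35, 2.87 and 3.67 in the other streamwater livers, 2.56, 2.42, 3.26 and 3.49 in wastewater livers, and 3.58, 2.75 and 3.24 in controls. The 13 other livers thus lay within 1.32 log2 units of each other, and the member stood at least 284-fold and at least 155-fold below its median in the 2 low livers. A second probe of the same sequence, UF_Ppr_AM_120150, is also a member (rank 185). It was at -7.57 in stormwater replicate 2 and -6.70 in streamwater replicate 4, against -3.57 to -0.92 in the other 13. In 7 further cases the second probe of a member's sequence was not a member, and 5 of these second probes were well above background on at most 5 arrays. Of the 2 that were seen on 11 arrays, UF_Ppr_AM_120474, the second probe of UF_Ppr_AF_103725, deviated by -4.66 in stormwater replicate 2 and -3.99 in streamwater replicate 4. UF_Ppr_AM_120327, the second probe of UF_Ppr_AF_105865, deviated by only -0.08 and -1.78, and over the 13 livers the 2 probes of that sequence correlated at r = -0.27. These second probes were named after their values were seen.

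UF_Ppr_AF_116949 (rank 4) was bright enough to be measured in every liver. It was at -3.26 in stormwater replicate 2 and -4.13 in streamwater replicate 4. It was at 4.85, 6.75 and 5.35 in the other stormwater livers, 5.16, 4.86 and 6.86 in the other streamwater livers, 4.77, 4.89, 5.01 and 7.06 in wastewater livers, and 4.36, 3.29 and 4.21 in controls. That put it 279-fold and 509-fold below its median, while the other livers spanned 3.77 log2 units. UF_Ppr_AF_105767 (rank 17) was steadier, between 4.78 and 6.46 in the 13 other livers, and stood at -1.96 in stormwater replicate 2 and -2.75 in streamwater replicate 4, which is 180-fold and 311-fold below its median.

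UF_Ppr_AF_111543 (rank 16) was at -2.62 in stormwater replicate 2, where it was well above background, and at -5.41 in streamwater replicate 4, where it was not, so that it stood 184-fold and at least 631-fold below its median. In the other 13 livers it lay between 3.09 and 6.09. UF_Ppr_AF_115665 (rank 2) was at -4.33 in stormwater replicate 2 and at -4.59 in streamwater replicate 4, with the other livers between 1.87 and 5.62. In streamwater replicate 4 it was not well above background, and its upper limit there is -4.40. Among the first 20 members, the range over the 13 other livers ran from 1.14 log2 units (UF_Ppr_AF_110401, 3.24 to 4.38) to 3.77 (UF_Ppr_AF_116949).

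The other members of the first 20 showed the same split, with no overlap between the 2 livers and the rest. UF_Ppr_AF_108019, UF_Ppr_AF_116839, UF_Ppr_AF_112262, UF_Ppr_AF_104377 and UF_Ppr_AF_115576 were below -6 in both livers and well above background in neither, while they stayed between -0.58 and 2.62 elsewhere. UF_Ppr_AF_110346, UF_Ppr_AF_104132, UF_Ppr_AF_111304 and UF_Ppr_AF_108546 lay between -6.32 and -4.11 in the 2 livers and between 0.72 and 5.29 elsewhere. The lowest level well above background was -5.28 in stormwater replicate 2 and -4.40 in streamwater replicate 4. Values below these levels are therefore not measurements, and the upper limit there is the array's lowest level well above background. UF_Ppr_AF_109060, UF_Ppr_AF_100122, UF_Ppr_AF_110401, UF_Ppr_AF_106802, UF_Ppr_AF_107235 and UF_Ppr_AF_117616 lay between -4.40 and -2.58 in the 2 livers and between 2.37 and 6.11 elsewhere.

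At the limit of the rule the values ran on without a break. The last 5 members were UF_Ppr_AF_105863 (higher deviation -4.48), UF_Ppr_AF_116714 (-4.48), UF_Ppr_AF_115299 (-4.47), UF_Ppr_AF_114766 (-4.47) and UF_Ppr_AF_100038 (-4.46). The next 5 probes were UF_Ppr_AF_114220 (-4.43), UF_Ppr_AF_105065 (-4.42), UF_Ppr_AF_111589 (-4.42), UF_Ppr_AF_108664 (-4.41) and UF_Ppr_AF_113880 (-4.41).

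The 3 members that were not below all other livers, named after their values were seen, were also low in some of the 13. UF_Ppr_AF_112904 was at -0.78 in stormwater replicate 2 and -0.88 in streamwater replicate 4. It was lower still, at -3.75 and not well above background, in wastewater replicate 4. In the remaining 12 livers it lay between 4.37 and 7.12. UF_Ppr_AF_100275 was at -6.15 in stormwater replicate 2 and -6.59 in streamwater replicate 4. It was also low in streamwater replicates 1 and 2 (-5.77 and -6.18), wastewater replicate 2 (-6.11) and control replicate 3 (-6.77), and was well above background on the other 9 arrays, between -1.57 and 0.72. UF_Ppr_AF_105863 is described with the most variable members.

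**Figure D3:**
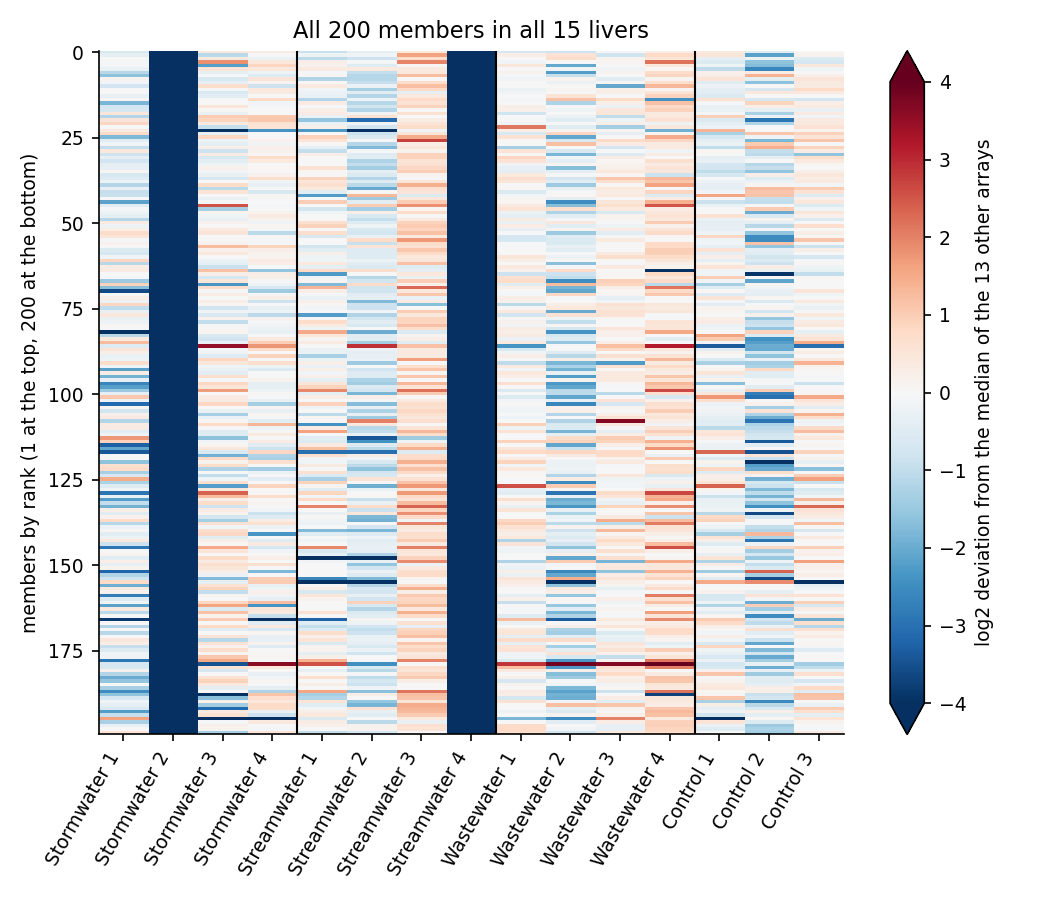
All 200 members by rank from top to bottom in all 15 livers, coloured by the log2 deviation from each member's median over the 13 other livers, with colours ending at -4 and 4. The columns of stormwater replicate 2 and streamwater replicate 4 are at the lower end of the scale throughout, and the other columns show single members that were high or low in a few livers.

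In the 13 other livers, the members were nearly all well measured and varied more than most probes. Of the 200, 195 were well above background on all 13 arrays, and the other 5 on 9 to 12 of them. Of all 11640 probes tested, 7448 were well above background on all 13 arrays. The choice of members favours a high count, since only a probe with a high enough median can fall so far below it. The members' own medians over these livers ran from -2.0 to 6.46. The SD over the 13 livers had a median of 0.79 for the members, against 0.58 for all probes tested and 0.43 for the 1164 probes of highest level. A range of over 2 log2 units was seen in 152 members (76.0%), against 48.2% of all probes tested.

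The members also moved together in these 13 livers more often than probes in general. The median correlation between members was r = 0.30 over 19900 pairs of members, against 0.00388 between all probes tested. Of the pairs of members 26.7% correlated at over 0.5, against 9.99% of all pairs. The first principal component held 30.9% of the members' variance, against 23.4% of that of all probes tested. With the members' median in each liver, 122 members correlated at over 0.5 and 11 below 0. The members themselves make up that median, which raises this count, and no such share is given for other probes. The values over all probes include dim ones, and none are given for probes of like level. All these correlations are over the same 13 arrays, share the scaling of each array, and are given as descriptions.

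Much of this lay in a few livers. In streamwater replicate 2, 83.0% of the members were below their own median of the 13 livers, against 45.7% of all probes tested. The same share was 74.0% in control replicate 2 against 42.1% of all probes, 69.0% in wastewater replicate 2 against 48.3%, and 64.5% in stormwater replicate 1 against 51.9%. At the other end, 10% of the members were below their median in streamwater replicate 3 against 49.8% of all probes, 12% in wastewater replicate 4 against 46.2%, and 25.0% in wastewater replicate 3 against 51.6%. Low and high livers thus occurred within the same water. The high livers named here were all on slide 2, and the low ones on slide 1 except control replicate 2, which was on slide 2. A part of the slide in this was not tested. Members over 2 log2 units below their own median numbered 26 in control replicate 2 (13%, against 0.859% of all probes), 26 in wastewater replicate 2 (13%, against 4.75%) and 20 in stormwater replicate 1 (10%, against 5.64%). They numbered at most 10 in any other of the 13. In the 2 livers of the rule all 200 members lay so far below by the choice, so that these counts are not set against them. Of all probes tested, 8.45% in stormwater replicate 2 and 9.43% in streamwater replicate 4 lay over 2 log2 units below the same median.

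**Figure D4:**
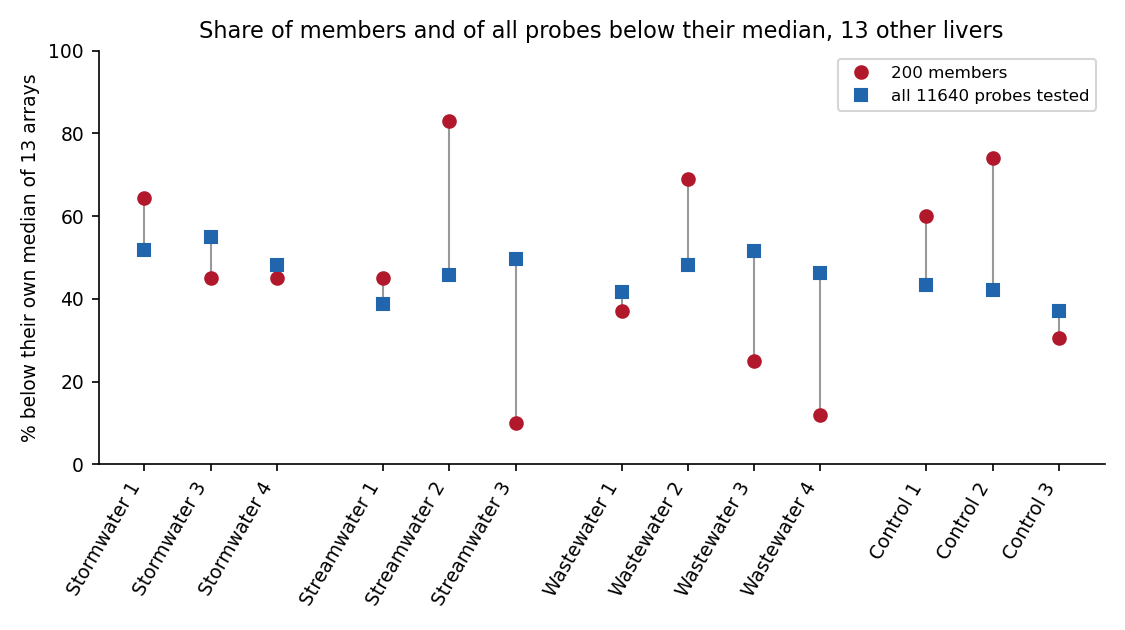
Percentage of probes below their own median of the 13 other livers, for the 200 members (red circles) and all 11640 probes tested (blue squares), in each of those livers. The members' share runs from 10% in streamwater replicate 3 to 83.0% in streamwater replicate 2, while that of all probes stays between 37.2% and 55.0%.

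Over these livers the group means of the members' median level were 2.84 ± 0.27 after stormwater (SD, n = 3), 2.95 ± 0.58 after streamwater (SD, n = 3), 3.03 ± 0.42 after wastewater (SD, n = 4) and 2.71 ± 0.57 in controls (SD, n = 3). The means of the exposed groups differed from that of the controls by less than the control SD. The livers on slide 1 (6 arrays) had a median of 2.72 and those on slide 2 (7 arrays) of 3.20. In the order of the 13 livers, streamwater replicate 3 and wastewater replicate 4 came highest and control replicate 2 lowest, with control replicate 3 in the third place from the top.

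Among members measured on all 13 arrays, the widest range belonged to UF_Ppr_AF_105863. It was at 4.52, -3.38 and -3.35 in stormwater replicates 1, 3 and 4, at 2.33, 2.90 and 3.29 in streamwater replicates 1 to 3, at 1.07, 0.41, 4.89 and 3.30 in wastewater livers, and at -3.37, 2.97 and 3.43 in controls. The values of stormwater replicates 3 and 4 and control replicate 1 were nearly equal, stood apart from the other 10, and lay between the levels of stormwater replicate 2 (-2.15) and streamwater replicate 4 (-3.78). The next widest, UF_Ppr_AF_118982, spanned -3.88 to 3.85, and UF_Ppr_AF_102020 spanned -4.43 (stormwater replicate 3) to 3.09 (control replicate 1).

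Other members hardly varied outside the 2 livers. UF_Ppr_AF_115315 stayed between 3.85 and 4.77 in the 13 livers, and was at -2.28 in stormwater replicate 2 and -3.72 in streamwater replicate 4, which is 90.2-fold and 246-fold below its median. UF_Ppr_AF_113103 stayed between 0.28 and 1.27, and was at -5.32 and -6.18, not well above background in either. UF_Ppr_AF_108222 stayed between 0.88 and 1.90, and was at -5.11 in stormwater replicate 2 and -4.78 in streamwater replicate 4. In streamwater replicate 4 it was not well above background, so that its upper limit there is -4.40. A wide spread among the 13 livers was thus not shared by all members.

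Probes outside the membership were also ranked by how closely they followed the members' median over the 13 livers. Apart from the brightest, such probes lack a loss of the size that chose the members, so that their deviations in the 2 livers are only listed. Among 7253 candidates measured on all 13 arrays, the median correlation with the members' median was 0.029 and 253 exceeded 0.7. UF_Ppr_AF_108192 came first at r = 0.939, with deviations of -1.06 in stormwater replicate 2 and -1.18 in streamwater replicate 4. UF_Ppr_AF_110482 (r = 0.932) deviated by -0.36 and -0.07, UF_Ppr_AF_113586 (r = 0.927) by -0.19 and -0.09, and UF_Ppr_AF_106262 (r = 0.922) by -0.99 and -1.0. UF_Ppr_AF_110272 (r = 0.927), which is among the 200 brightest control probes, deviated by -2.39 and -3.80.

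What the files say of the members' sequences is limited to their names. By name, 157 members (78.5%) were probes of assembled contigs, as were 81.6% of all probes tested, and 37 (18.5%) carried a sequence number, as did 18.1%. The remaining 6 (3%) belonged to a small class of other names that made up 0.284% of the probes tested (33 of 11640). These 6, named after their values were seen, were UF_Ppr_AF_114145, UF_Ppr_AM_120150, UF_Ppr_AF_102310, UF_Ppr_AF_102554, UF_Ppr_AF_111752 and UF_Ppr_AF_112367, of which the first 2 share a sequence. In 4 cases 2 members carried the same contig number, and these pairs correlated at 0.525 to 0.928 over the 13 livers. UF_Ppr_AF_103987 and UF_Ppr_AF_109756 formed the pair of highest correlation.

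Probes of the members' contigs that the rule ranked but did not choose have smaller losses by that choice. The 200 brightest control probes were left out whatever their loss, and the probes counted here can include them. For 153 contig numbers among the members, 17 further probes were tested outside the membership, and 3 of them (17.6%) lay over 2 log2 units below their median in both livers, against 4.49% of the 11440 probes tested outside the membership. Their median deviation was -1.09 in stormwater replicate 2 and -1.46 in streamwater replicate 4, against 0.00459 and -0.0657 for all probes tested. A shared contig number does not say that 2 probes read the same transcript. The members lay in all parts of the array, with 54, 48, 51 and 47 of them in 4 equal strips of its rows.

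The loss was also read on a scale set by spike-in probes, which read RNA added during labelling. Such a scale moves all probes of an array by the same amount, and the members were chosen for a large loss on these 2 arrays. The values on other scales therefore describe the loss and carry no test. On the spike-in scale the members' median deviation from their own medians over all 15 livers was -5.54 in stormwater replicate 2 and -7.12 in streamwater replicate 4. In the authors' deposited log2 values it was -5.53 and -5.94. With the 75th percentile it was -6.30 and -6.53. The 75th percentile itself stood 2.79 and 4.11 log2 units below the spike-in probes on these 2 arrays and between 2.93 and 3.99 below them on the others.

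Whether the members also differed between exposed and control livers was tested without stormwater replicate 2 and streamwater replicate 4. The test on the 13 other livers used limma across all 11640 probes and Benjamini-Hochberg adjustment. These 13 livers were not wholly free of the choice, since all 15 entered each probe's median. The control mean decided which 200 probes were left out, 51 of which the rule would otherwise have taken. Leaving them out can favour members that are lower in controls, and the size of this was not tested. After stormwater, 0 of 200 members passed at an adjusted p of 0.05, as did 0% of all probes, and the lowest adjusted p of a member was 0.549. At an unadjusted p under 0.05, 15 members (7.5%) differed, 10 higher and 5 lower, against 7.44% of all probes tested (1.85% higher, 5.59% lower). The members' median log2 fold change was 0.07, and that of all probes -0.19. Levels of the 3 stormwater and 3 control livers did not overlap for 20 members (10%, 12 above and 8 below), against 15.7% of all probes. Among all probes, 600 lay above the controls and 1232 below. With slide as a block, 19 members were under 0.05 (8 higher, 11 lower), against 1541 of all 11640 probes (274 higher, 1267 lower). Within slide 2 they numbered 19, against 715 of all probes. The members' median was -0.26 within slide 1, where 1 array stood against 1 with the spread pooled over all 13. Within slide 2 it was 0.23. Over all probes these medians were -0.23 and -0.19. Without control replicate 2 the members' median was -0.17, and 8 members were under 0.05, against 586 of all probes. With the replicate number as a block the direction turned, with 6 members higher and 23 lower under 0.05, against 276 and 984 of all probes. The members' median was then -0.26, against -0.23 over all probes.

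UF_Ppr_AM_120180 had the lowest p after stormwater, at 3.86, 5.12 and 4.74 in stormwater replicates 1, 3 and 4 and at 3.47, 2.31 and 3.01 in controls. All 3 exposed livers lay above the controls, and its log2 fold change was 1.64 (SE 0.47, limma adjusted p = 0.549). UF_Ppr_AF_117737 was at 3.42, 7.46 and 5.72 after stormwater and at 0.63, 1.96 and 0.93 in controls. Its log2 fold change was 4.36 (SE 1.31, limma adjusted p = 0.549), again without overlap, and the exposed livers themselves spread over 4 log2 units. UF_Ppr_AF_110346 was at 3.05, 3.82 and 3.77 after stormwater and at 2.31, 0.72 and 3.13 in controls, where 1 control lay above the lowest exposed liver (log2 fold change 1.49, SE 0.48, limma adjusted p = 0.560). UF_Ppr_AF_105863, which jumped between livers of the same water, had over both slides a fitted log2 change of -1.75 (SE 2.18, limma adjusted p = 0.823). Within slide 1 it was 7.89, from 1 stormwater liver against 1 control with the spread of the other waters, and within slide 2 it was -6.57. The threshold was crossed within each slide, in opposite directions, and no water effect is read from it.

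After streamwater, 0 of 200 members passed, again beside 0% of all probes, and the lowest adjusted p was 1.00. At an unadjusted p under 0.05, 7 members (3.5%) differed, 6 higher and 1 lower, against 4.26% of all probes tested (1.06% higher, 3.2% lower). The members' median log2 fold change was 0.22, against -0.03 over all probes. With a normexp background these were 0.10 and 0.29, so that the members' place relative to all probes turned round. Levels did not overlap for 13 members (6.5%, 7 above and 6 below), against 9.18% of all probes. Among all probes, 377 lay above the controls and 692 below. Members under 0.05 numbered 15 with slide as a block, against 875 of all 11640 probes. The members' median was -0.18 within slide 1, where control replicate 1 stood alone, and 1.01 within slide 2, where streamwater replicate 3 did. Over all probes these medians were -0.02 and -0.13. Leaving out streamwater replicate 3 brought the members' median over both slides to -0.12, against 0.03 over all probes.

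UF_Ppr_AF_110346 had the lowest p after streamwater as well, at 3.67, 3.71 and 3.67 in streamwater replicates 1 to 3, all above the 3 controls (log2 fold change 1.63, SE 0.48, limma adjusted p = 1.00). UF_Ppr_AF_117737 was at 3.92, 6.85 and 5.13 after streamwater, also above all controls (log2 fold change 4.12, SE 1.31, limma adjusted p = 1.00). Both comparisons use the same control livers. UF_Ppr_AF_108546 was lower, at 1.45, 1.49 and 2.65 after streamwater and at 3.20, 2.29 and 3.17 in controls, with 1 exposed liver inside the control range (log2 fold change -1.02, SE 0.42, limma adjusted p = 1.00).

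After wastewater, for which all 4 livers entered, 0 of 200 members passed, beside 0% of all probes, and the lowest adjusted p was again 1.00. At an unadjusted p under 0.05, 16 members (8.0%) were higher and 0 lower, against 4.54% of all probes tested (1.43% higher, 3.1% lower). The members' median log2 fold change was 0.24, against -0.12 over all probes, and 137 of 200 members (68.5%) were higher, against 37.8% of all probes. Levels did not overlap for 13 members (6.5%), all above the controls, against 6.15% of all probes in either direction. Among all probes, 254 lay above the controls and 462 below. The count of 16 fell to 4 without wastewater replicate 4 and to 5 without control replicate 2, against 452 and 343 of all probes. Within slide 1, which holds control replicate 1 alone, the members' median was -0.12, against -0.09 over all probes. Within slide 2 the count was 19, all higher, against 190 higher and 744 lower of all probes. The members' median there was 0.63, against -0.15 over all probes. With slide as a block the count was 23, all higher, against 250 higher and 635 lower of all probes. A normexp background gave 10 members, against 384 of all probes. The members' median was then 0.15, against 0.17 over all probes, with 65.5% of members and 68.5% of all probes higher. The members' share was thus no longer the higher.

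UF_Ppr_AF_118982 had the lowest p after wastewater, at 2.45, 3.51, 3.28 and 3.85 in wastewater livers and at -1.15, -0.68 and -1.80 in controls. The groups did not overlap, and the log2 fold change was 4.49 (SE 1.42, limma adjusted p = 1.00). When only these 2 groups were fitted it was 1 of 4 among all probes to pass (limma adjusted p = 0.0212, range over all settings 0.0212 to 1.00). In the other waters it varied widely, from -3.88 to 3.21 after stormwater and from -2.84 to 2.19 after streamwater without the 2 low livers. UF_Ppr_AF_113641 was at 4.51, 4.49, 4.47 and 5.01 after wastewater and at 3.51, 0.22 and 3.58 in controls, without overlap and with control replicate 2 far below the others (log2 fold change 2.19, SE 0.76, limma adjusted p = 1.00). UF_Ppr_AF_115028 was at 5.74, 4.83, 5.77 and 6.17 after wastewater and at 5.0, 3.43 and 4.66 in controls, with 1 control inside the exposed range (log2 fold change 1.27, SE 0.46, limma adjusted p = 1.00).

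**Figure D5:**
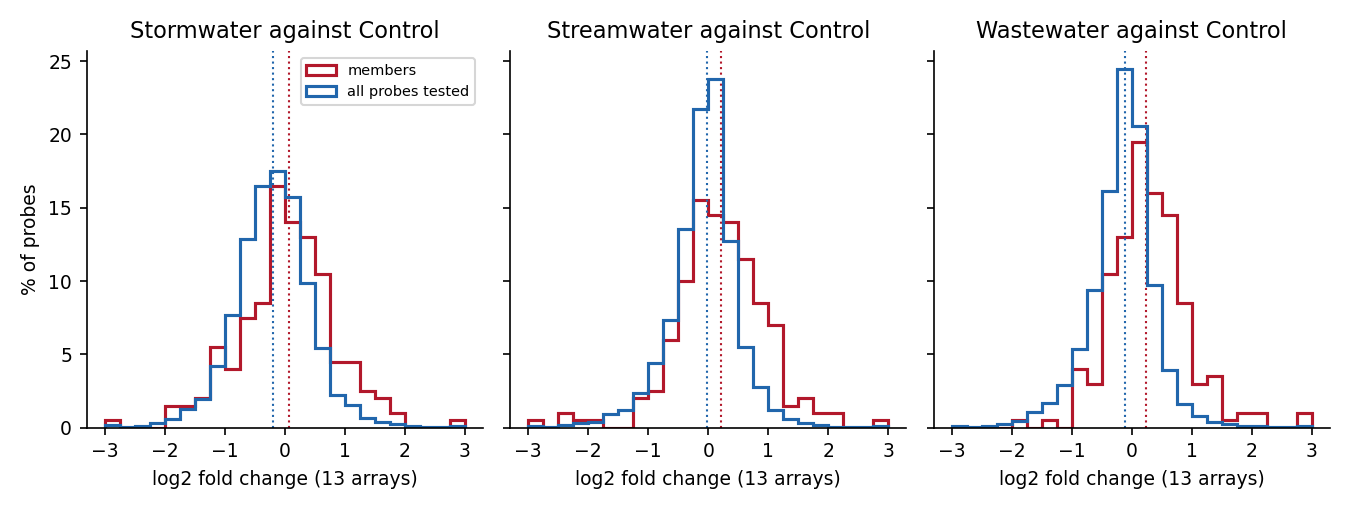
Distribution of log2 fold changes against control over the 13 livers for the 200 members (red) and all 11640 probes tested (blue), 1 panel for each exposed water, as a percentage of probes. Values beyond -3 or 3 are drawn in the end bins, and dotted lines mark the medians of members and of all probes, which are 0.07 and -0.19 for stormwater, 0.22 and -0.03 for streamwater, and 0.24 and -0.12 for wastewater.

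When the 2 low livers were put back among their groups, the members' median log2 fold change was -1.49 after stormwater and -1.43 after streamwater. An unadjusted p under 0.05 was seen for 1 member in each comparison, against 774 and 469 of all 11640 probes. Since those 2 livers chose the members, the sign of these medians follows from the choice, and the wide spread they bring to their groups enters the error of all 3 comparisons.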

How the data were processed

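Groups, replicate numbers and the 48 h exposure were taken from the labels. Per the labels' protocols, 1000 ng of RNA with integrity numbers between 8.0 and 9.9 was labelled. The scanner files hold spot intensity values written by Agilent Feature Extraction, which the file headers give as version 10.1.1.1 and the submitters' processing notes as version 9.5. The processed signal used here is background-subtracted within the array and not normalized between arrays, per the file headers. Detection, saturation and outlier flags are in the same deposited files. The value table deposited by the authors is on a log2 scale, the sources used here do not give how its arrays were levelled, and it served as an alternative.

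Each array's 75th percentile over non-control probes was taken from its log2 processed signals. Probes well above background on at least 3 arrays (11640) were ranked and tested. In the fits, outlier spots were set to missing. Each water was set against control with limma 3.58.1 and R 4.3.3 (lmFit, group means and contrasts, eBayes, two-sided). The fit used the 13 arrays other than stormwater replicate 2 and streamwater replicate 4, with 9 residual degrees of freedom. Benjamini-Hochberg adjustment was over all probes tested, with a threshold of 0.05. The fit was tested on simulated data. Other values came from Python 3.11.15 and figures from matplotlib 3.10.9.

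The members and lists were chosen with earlier results of these data known. Named probes were, by rule, the first 20 members, 5 probes on either side of the limit, the 3 members of lowest p per comparison where none passed, the 3 of widest and 3 of narrowest range over 13 arrays, and the 5 most alike probes outside. Marker lists for liver, pancreas, blood, muscle and other tissues could not be applied, since no probe has a gene name. Alternatives tried were normexp background correction (offset 50, on median spot signals), quantile normalization, both other filters on dim probes, slide or replicate number as a block, the authors' values, all 15 arrays, only the groups compared, and fits without each single array. The spike-in scale (7 of 10 spike-in probes), fits within each slide and, for the membership, outlier spots set to missing were added after the data were seen.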

Additional observations from a re-analysis of the deposited data

Results flagged for a closer look

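Within groups of 4, single livers stood apart from the nearest other liver. For the members' median level these were stormwater replicate 2 (-3.39) and streamwater replicate 4 (-4.15), and for the number of members well above background the same livers (137 and 99). Of the 34 named members, 21 showed stormwater replicate 2 apart from the other stormwater livers and 17 showed streamwater replicate 4 apart from the other streamwater livers. These livers chose the members, so that the choice fixed their place and no test attaches to it. Other livers also stood apart for single members, by a gap rule that picks about 1 in 20 groups by chance. UF_Ppr_AF_105863 was at 4.52 in stormwater replicate 1 while the other 3 stormwater livers lay between -3.38 and -2.15. Wastewater replicate 4 was the highest of its group for UF_Ppr_AF_116949 (7.06) and UF_Ppr_AF_113641 (5.01), and the lowest for UF_Ppr_AF_102020 (-0.18).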

How the results depend on the processing

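Fits with 1 array in a group are left aside here. In the others, 2 members passed an adjusted p of 0.05, in 1 setting each. UF_Ppr_AF_105863 passed after stormwater within slide 2, as 1 of 2 among all probes. UF_Ppr_AF_118982 passed after wastewater when only the 2 groups were fitted (limma adjusted p = 0.0212), as 1 of 4 among all probes. Members at an unadjusted p under 0.05 are counted next, with the count over all probes tested in brackets. After stormwater they numbered 15 (866), against 29 with the replicate block (1260) and 1 with all 15 arrays (774). With the replicate block 6 members were higher and 23 lower, against 276 and 984 of all probes. Leaving out single livers gave 8 without control replicate 2 (586) to 22 without control replicate 3 (1039). After streamwater they numbered 7, against 13 with quantile normalization, 16 among probes well above background on all 13 arrays, 15 with slide as a block, 21 with the replicate block, 14 with the authors' values, 1 with all 15 arrays, 24 on the spike-in scale, 13 within slide 1 and 23 within slide 2. Leaving out single livers gave 4 (stormwater replicate 4, wastewater replicate 1) to 21 (control replicate 3), with 11 without stormwater replicate 3, 15 without streamwater replicate 2 and 11 without control replicate 1. After wastewater they numbered 16 (528), against 10 with a normexp background (384) and 1 with all 15 arrays (338). Leaving out single livers gave 4 without wastewater replicate 4 (452) to 21 without wastewater replicate 2 (530). With all 15 arrays 3 changes turned round, UF_Ppr_AM_120180 to -0.26 and UF_Ppr_AF_110346 to -0.60 after stormwater, and UF_Ppr_AF_110346 to -0.84 after streamwater, where the 2 livers that chose the members entered. In the other cases the cause was not tested. The rule chose 98 of the 200 members again among probes well above background on all arrays. At most the 99 members measured in both low livers could pass that filter. It chose 194 to 199 again without single livers and 149 to 200 in the other settings. Same-numbered livers correlated at -0.05 to 0.30 (16 pairs, deviations from group means), and 6 of 13 arrays correlated best with their own number. The median was 0.12 for same-numbered and -0.04 for other pairs. Not every pair exceeded 0.1, so that the numbers are not taken to pair the livers, although the values leave this unclear. In 2 livers, 63 and 101 members were not well above background and have only a limit there.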
